A study of Mus musculus with 18 samples.

Results

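The genes described here are the receptors and binding proteins of the insulin-like growth factors (IGFs): the binding protein genes *Igfbp2*, *Igfbp3*, *Igfbp4*, *Igfbp5*, *Igfbp6* and *Igfbp7*, and the receptor genes *Igf1r*, *Igf2r* and *Insr*. They were chosen by name, as 9 of the 54838 genes in the count table, and 8 of them passed the filter on low counts and were tested among 20067 genes. *Igfbp6* did not pass. RNA-sequencing was used to follow mouse neural stem cells as they became astrocytes, and to ask how the inflammatory cytokine tumor necrosis factor (TNF) alters this course. All cells came from wild type C57BL/6J embryos at embryonic day 14, taken from the ventricular zone of single brains. There were 6 conditions with 3 replicates each, which makes 18 libraries. Neurospheres (NSPs), the floating aggregates that neural stem cells form, were kept proliferating in medium with B27 and epidermal growth factor. The other cells were plated on poly-L-ornithine in DMEM with 10% serum and were collected after 24 h, after 72 h or after 1 week without TNF, or after 24 h or 72 h with 50 ng/ml TNF. Every differentiating culture therefore differed from the NSPs in basal medium, serum and substrate, and in the loss of B27 and of the growth factor. It differed in time as well, and these cannot be told apart. No library came from cells with TNF at 1 week.

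IGF1 and IGF2 act mainly through the IGF1 receptor, a tyrosine kinase that resembles the insulin receptor and can pair with it. The IGF2 receptor, also the cation-independent mannose-6-phosphate receptor, has no kinase and clears IGF2 to lysosomes. The secreted binding proteins hold IGFs outside the cell, where they can carry, store or withhold them, and proteases such as pappalysin release the ligand by cutting the binding protein. IGF signals favour the growth and survival of neural progenitors and glia.

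The libraries held between 12509693 and 22549627 counts, with a median of 16794798. Levels are given as CPM, read counts relative to library size scaled by edgeR's TMM factors, and a gene is called where its adjusted p was under 0.05 in edgeR's quasi-likelihood test over all 18 libraries. The study's methods speak in general of independent biological experiments and of cells from single brains, but no source ties each library to an animal or culture, so the p-values measure the spread between these libraries, which may be technical. RNA quality numbers ran from 3.4 to 10 but are not given by library, and their part in any result was not tested. Replicate 1 stood apart from the other replicates in both TNF conditions and in NSPs. Over 10122 genes its mean absolute log2 difference from them was 0.303 to 0.391, against 0.102 to 0.194 between replicates 2 and 3 of the same conditions. At untreated 72 h, replicates 1 and 3 were as far apart (0.340), with 0.232 between 1 and 2 and 0.177 between 2 and 3. The differences were 0.156 to 0.227 at untreated 24 h and 0.122 to 0.258 at 1 week. The astrocyte marker *Gfap* averaged 27.1 CPM in NSPs, 899 CPM at 24 h and 2432 CPM at 72 h. It averaged 489 CPM at 72 h with TNF and only 63.4 CPM at 1 week. The titles of all 18 samples, those of the NSPs included, name astrocytes. Of the 8 astrocyte markers, none was called higher and 5 were called lower at 1 week than in NSPs, and 6 were called lower than at 72 h. *S100b* averaged 117 CPM in NSPs, 76.0 CPM at 72 h and 14.1 CPM at 1 week, *Aldoc* 1181, 581 and 263 CPM, and the transporter *Slc1a3* 3050, 2203 and 2067 CPM. Of the 7 mural cell and fibroblast markers, *Col1a1*, *Col1a2*, *Dcn*, *Lum* and *Pdgfrb* averaged at most 0.51 CPM in every condition. The other 2 were called higher than in NSPs at every untreated time: *Acta2*, smooth muscle actin, averaged 5.83 CPM in NSPs and 439, 235 and 371 CPM at 24 h, 72 h and 1 week, and *Rgs5* rose from 0.059 to 2.49 CPM at 72 h. Their part in the differences from NSPs was not tested. The 5 microglial markers summed to at most 0.853 CPM in any library. These are bulk samples, so fewer cells of a type and less RNA per cell cannot be told apart.

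The binding protein genes *Igfbp2* and *Igfbp5* are neighbours on chromosome 1 of GRCm38. *Igfbp2* runs forward at chr1:72824503-72852474 and *Igfbp5* runs in reverse at chr1:72857932-72874884, so their 3' ends face each other across 5457 bases. *Igfbp3* (chr11:7206086-7213923) and *Igfbp4* (chr11:99041244-99054392) are far apart on chromosome 11. *Igfbp6* is at chr15:102144362-102149511 and *Igfbp7* at chr5:77349240-77408041. The receptor genes are *Igf1r* at chr7:67952827-68233668, *Igf2r* at chr17:12682406-12769664 and *Insr* at chr8:3122061-3279617.

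The promoters shown next belong to the members on which the results turn. *Igfbp4* had the largest change with differentiation among the members, *Igfbp5* and *Igfbp7* moved in opposite directions with TNF, and *Igf1r* rose with TNF. Each run is the 250 bases before the gene's start in RefSeq on GRCm38.p6, read 5' to 3' on the gene's own strand. RefSeq starts were matched for 8 of the 9 genes. The capitals mark a TATAAA box in *Igfbp4*, matches to the NF-kB consensus in *Igfbp5*, and GC boxes (GGGCGG) in *Igfbp7* and *Igf1r*, each searched on both strands. NF-kB is the transcription factor family through which TNF is best known to act.
*Igfbp4*, forward strand, chr11:99040994-99041243: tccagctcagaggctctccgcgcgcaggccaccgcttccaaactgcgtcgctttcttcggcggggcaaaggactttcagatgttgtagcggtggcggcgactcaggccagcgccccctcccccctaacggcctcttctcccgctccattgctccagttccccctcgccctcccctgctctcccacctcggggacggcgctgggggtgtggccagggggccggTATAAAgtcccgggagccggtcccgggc
*Igfbp5*, reverse strand, chr1:72874866-72875115: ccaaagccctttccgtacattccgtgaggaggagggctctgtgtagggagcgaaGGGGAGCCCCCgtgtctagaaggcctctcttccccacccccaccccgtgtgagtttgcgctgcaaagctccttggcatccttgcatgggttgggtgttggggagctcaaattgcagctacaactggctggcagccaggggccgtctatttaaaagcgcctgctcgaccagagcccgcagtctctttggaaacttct
*Igfbp7*, reverse strand, chr5:77408046-77408295: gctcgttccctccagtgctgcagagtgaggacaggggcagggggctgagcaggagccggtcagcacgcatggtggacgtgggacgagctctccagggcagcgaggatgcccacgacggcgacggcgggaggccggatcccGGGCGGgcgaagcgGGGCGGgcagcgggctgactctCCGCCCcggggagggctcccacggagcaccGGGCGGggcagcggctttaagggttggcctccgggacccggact
*Igf1r*, forward strand, chr7:67952007-67952256: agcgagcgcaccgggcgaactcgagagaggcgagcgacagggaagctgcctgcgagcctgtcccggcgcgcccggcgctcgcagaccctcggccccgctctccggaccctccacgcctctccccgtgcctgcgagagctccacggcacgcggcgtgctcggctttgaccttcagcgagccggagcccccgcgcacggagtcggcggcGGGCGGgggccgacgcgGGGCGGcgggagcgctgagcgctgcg
The TATAAA of *Igfbp4* begins 28 bases before the start, and 12.4% of 32851 mouse promoter windows of this length hold TATAAA. The windows of *Igfbp7* and *Igf1r* hold 4 and 2 GC boxes, which 32.7% of all windows have at least once. The NF-kB consensus occurs in 7.25% of all windows. In *Igfbp5*, which fell with TNF, it matched at 2 overlapping places beginning 196 and 195 bases before the start, while no match was found in the windows of *Igfbp7*, *Igf1r* or *Igf2r*, which rose. The window of *Igf2r* holds 3 GC boxes and 2 copies of CACGTG, a motif of 6.02% of all windows. These are matches of letters and say nothing of what binds there.

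As cells differentiated without TNF, members went both ways. *Igfbp4* and *Igfbp2* fell steeply, *Igfbp5* ended higher, and the receptors parted, with *Insr* and *Igf1r* rising and *Igf2r* falling. Of the 8 tested members, 4 were called at 24 h against NSPs (2 higher, 2 lower), where 52.7% of all tested genes were called. There were 4 at 72 h (1 higher, 3 lower; background 55.3%) and 6 at 1 week (3 higher, 3 lower; background 58.6%). The members' share lay just under the background at 24 h and 72 h and above it at 1 week. The members' median log2 fold change was -0.20 at 24 h, -0.10 at 72 h and -0.04 at 1 week, against 0.06, 0.05 and 0.06 over all tested genes. These comparisons share the NSP libraries.

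**Figure D1:**
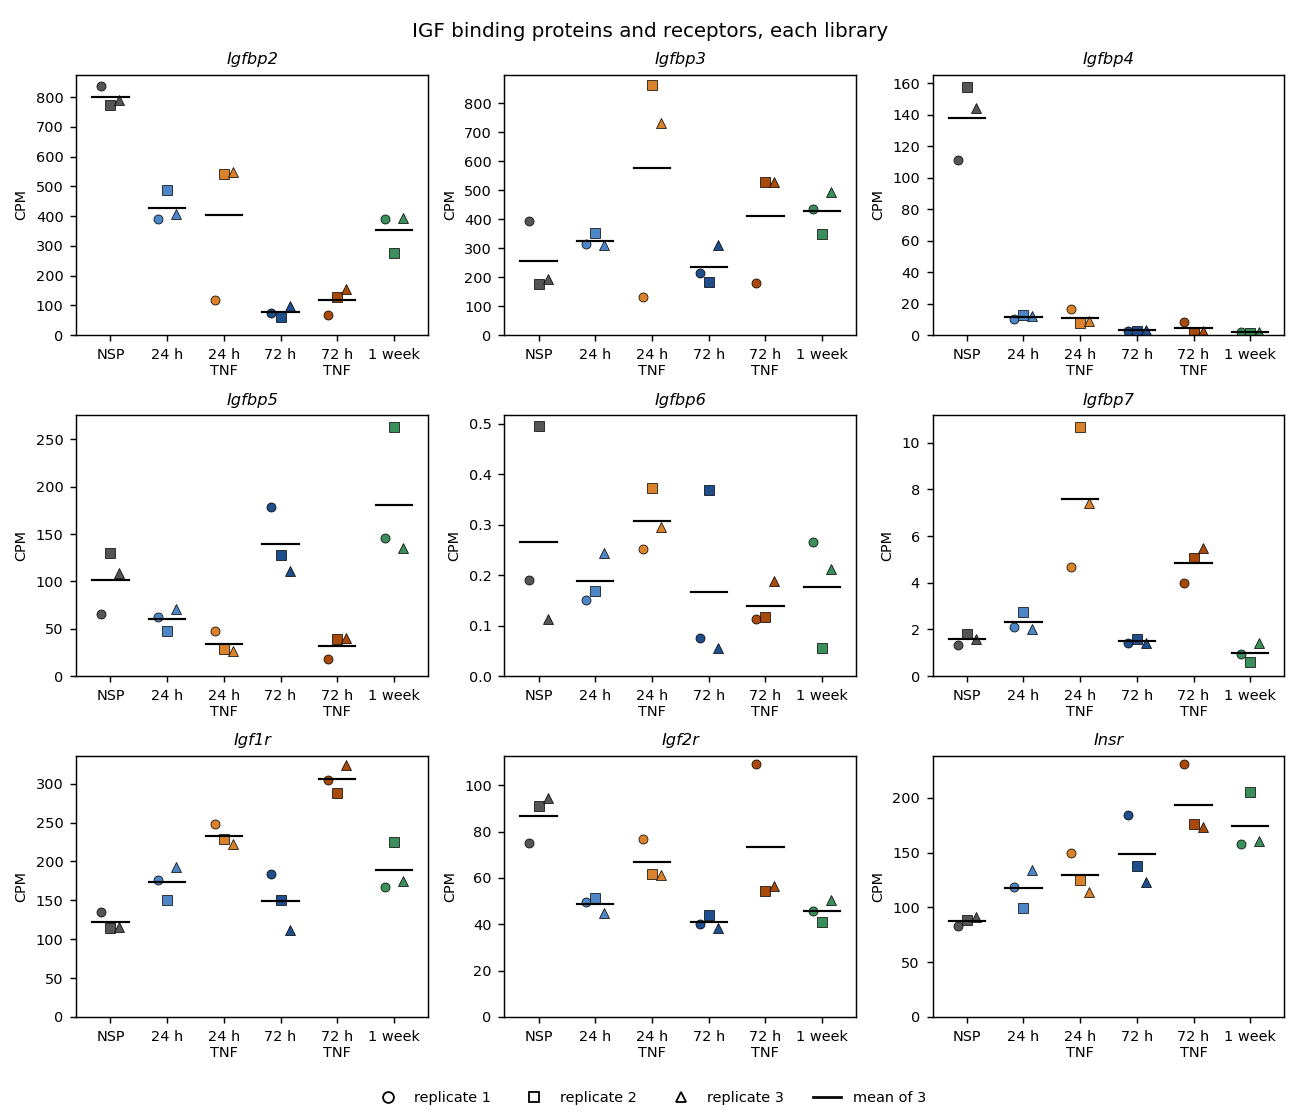
Level of each of the 9 genes in CPM (vertical axes, each from 0) in every library of the 6 conditions, with replicates as symbols and the mean of 3 as a line. *Igfbp4* drops from 111 to 158 CPM in NSPs to under 17 CPM in every other library, and replicate 1 of both TNF conditions (circles) lies away from the other replicates for *Igfbp2*, *Igfbp3* and *Igf2r*.

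*Igfbp4*, whose product can sequester IGFs until pappalysin cuts it, stood at 111, 158 and 144 CPM in the NSP replicates. It was at 10.4, 12.97 and 12.0 CPM at 24 h, at 2.80, 2.82 and 3.63 CPM at 72 h, and at 1.94, 1.53 and 2.04 CPM at 1 week. The level was thus lower at each later time, with no overlap between the conditions. Against NSPs it was 11.7-fold lower at 24 h (log2 fold change -3.55, SE 0.37, adjusted p = 4.14e-07 in edgeR), 44.3-fold lower at 72 h and 74.7-fold lower at 1 week (log2 fold change -6.22, SE 0.44, adjusted p = 1.00e-09 in edgeR). Most of the fall had happened by 24 h, and the further step from 24 h to 72 h was also called (3.79-fold, adjusted p = 0.00146 in edgeR). The step from 72 h to 1 week was not called (log2 fold change -0.75, SE 0.45). At 1 week only 101 counts in 3 libraries remained. The proliferation markers *Mki67*, *Top2a* and *Ccnb1* moved with it: *Mki67* averaged 474 CPM in NSPs, 41.1 CPM at 24 h, 1.39 CPM at 72 h and 2.65 CPM at 1 week. The stem cell markers *Nes* and *Vim* did not. *Nes* averaged 1326, 748, 852 and 1038 CPM at these times, and *Vim* 1928, 2844, 3120 and 2252 CPM. Of the 4 tested oligodendrocyte lineage markers, 2, 3 and 4 were called lower than in NSPs at 24 h, 72 h and 1 week (background 52.7%, 55.3% and 58.6%). The part of these markers in the fall of *Igfbp4* was not tested.

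*Igfbp2*, a binding protein abundant in the embryonic brain and in astrocytes, fell and then partly returned. The NSP replicates had 837, 772 and 790 CPM. At 24 h there were 390, 489 and 406 CPM, at 72 h 73.6, 62.0 and 99.4 CPM, and at 1 week 391, 277 and 393 CPM. The 72 h libraries were therefore the lowest of the untreated series, and 1 week lay at the lower end of the 24 h range or below it. The fall to 72 h was 10.2-fold (log2 fold change -3.35, SE 0.41, adjusted p = 1.63e-06 in edgeR). The 24 h level narrowly missed the threshold (log2 fold change -0.90, SE 0.38, adjusted p = 0.0526 in edgeR), and it passed in 5 of 9 alternatives other than leaving out a library, among them a fit of only the groups compared (adjusted p = 0.000463) and RLE factors (adjusted p = 0.0456). It was called in none of the 6 fits without 1 library (adjusted p from 0.0707 to 0.132). The rise from 72 h to 1 week was 4.51-fold (log2 fold change 2.17, SE 0.39, adjusted p = 0.00201 in edgeR). *Igfbp2* was the only member called between these times, where 6.63% of all tested genes were. At 1 week it remained 2.26-fold under NSPs (adjusted p = 0.0125 in edgeR), a call that was lost without replicate 2 of 1 week (adjusted p = 0.0577).

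*Igfbp5*, the neighbour of *Igfbp2* and a binding protein that attaches to extracellular matrix, dipped and then rose. NSPs had 66.0, 130 and 109 CPM, and 24 h had 62.4, 47.4 and 71.0 CPM. It reached 179, 128 and 111 CPM at 72 h and 146, 263 and 135 CPM at 1 week. All 72 h and 1 week libraries lay above all 24 h libraries, whereas NSPs overlapped both 24 h and 72 h. The rise from 24 h to 72 h was 2.31-fold (log2 fold change 1.21, SE 0.32, adjusted p = 0.00996 in edgeR), and it slipped past the threshold without replicate 2 of 24 h (adjusted p = 0.0525). Against NSPs the 1 week level was 1.78-fold higher (log2 fold change 0.83, SE 0.32, adjusted p = 0.0321 in edgeR), which was lost without replicate 1 or 3 of NSPs or replicate 2 of 1 week (adjusted p = 0.143, 0.0564 and 0.243). The dip at 24 h was not called (adjusted p = 0.0561 in edgeR), but it was with DESeq2 (adjusted p = 0.0379).

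From 24 h to 72 h, *Igfbp2* and *Igfbp4* were called lower and *Igfbp5* higher, which is 3 of 8 tested members against 24.8% of all tested genes. *Igfbp2* fell 5.47-fold in this interval (log2 fold change -2.45, SE 0.40, adjusted p = 0.00017 in edgeR). The neighbouring genes *Igfbp2* and *Igfbp5* thus changed in opposite directions between these times, and no receptor was called.

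*Igfbp3*, the main IGF carrier of blood serum, spread widely among replicates. The NSP replicates had 395, 178 and 194 CPM. At 24 h there were 314, 351 and 312 CPM, at 72 h 216, 183 and 310 CPM, and 435, 350 and 494 CPM after 1 week. NSP replicate 1 was about as high as the 1 week libraries, and no differentiation step was called. The 95% interval of the log2 change from NSPs to 1 week was -0.20 to 1.68, and from 72 h to 1 week it was -0.09 to 1.79. When only the groups compared were fitted, the rise from 72 h to 1 week was called (log2 fold change 0.85, adjusted p = 0.022 in edgeR), as was that from NSPs (adjusted p = 0.0354).

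*Igfbp7*, which binds IGFs only weakly and is best known from vessels and senescent cells, was scarce throughout, with at most 49 counts in any untreated library. Untreated levels ran from 0.603 CPM at 1 week to 2.74 CPM at 24 h, and no step without TNF was called. Its exons share 85 bases, or 7.03% of their length, with *Polr2b* on the opposite strand, a gene with up to 3972 counts in a library. The strand setting of the counting is not stated, so reads of this stretch cannot be assigned with certainty. *Igfbp6*, a binding protein that prefers IGF2, had between 1 and 9 counts in every library, and nothing can be compared at this depth.

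Among the receptors, *Insr* climbed most steadily. The NSP replicates had 82.9, 88.5 and 91.5 CPM. There were 118, 99.4 and 134 CPM at 24 h, 184, 138 and 123 CPM at 72 h, and 158, 205 and 161 CPM at 1 week. Each differentiated group lay above NSPs without overlap. The 72 h libraries overlapped those of 24 h and of 1 week, and 24 h and 1 week did not overlap. *Insr* was 1.69-fold higher at 72 h (log2 fold change 0.76, SE 0.17, adjusted p = 0.000819 in edgeR) and 1.99-fold higher at 1 week (log2 fold change 0.99, SE 0.17, adjusted p = 5.57e-05 in edgeR). The call at 24 h was weak (1.34-fold, adjusted p = 0.0419 in edgeR) and was lost with DESeq2 (adjusted p = 0.0708), with RLE factors (adjusted p = 0.0557), and without any 1 of the libraries compared except replicate 2 of 24 h (adjusted p up to 0.204).

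*Igf1r* had 135, 114 and 116 CPM in NSPs and 176, 151 and 193 CPM at 24 h. It had 184, 150 and 112 CPM at 72 h, followed by 168, 225 and 175 CPM at 1 week. The 72 h replicates were spread over the range from NSPs to 24 h. The rise was called at 24 h (1.42-fold, log2 fold change 0.51, SE 0.16, adjusted p = 0.0113 in edgeR) and at 1 week (1.55-fold, log2 fold change 0.64, SE 0.16, adjusted p = 0.00204 in edgeR), and not at 72 h (log2 fold change 0.29, SE 0.16, adjusted p = 0.126 in edgeR). Without replicate 3 of 72 h, the 72 h rise was called as well (log2 fold change 0.46, adjusted p = 0.0147 in edgeR). Without replicate 3 of 24 h, the 24 h rise was not (adjusted p = 0.0674).

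*Igf2r* went the other way. It had 74.9, 90.8 and 94.5 CPM in NSPs and then settled at 49.5, 51.3 and 44.8 CPM at 24 h, 40.0, 43.9 and 38.5 CPM at 72 h, and 45.6, 40.8 and 50.6 CPM at 1 week. All 9 later untreated libraries were below all 3 NSP libraries, and after 24 h no further step was called. The fall was 1.79-fold at 24 h (log2 fold change -0.84, SE 0.20, adjusted p = 0.00192 in edgeR), 2.12-fold at 72 h (adjusted p = 0.000158 in edgeR) and 1.90-fold at 1 week (adjusted p = 0.000628 in edgeR). *Airn*, a non-coding RNA that is transcribed across *Igf2r* on the opposite strand, shares no exon bases with it. It had 38 to 83 counts in each untreated library and no called change between untreated conditions.

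**Figure D2:**
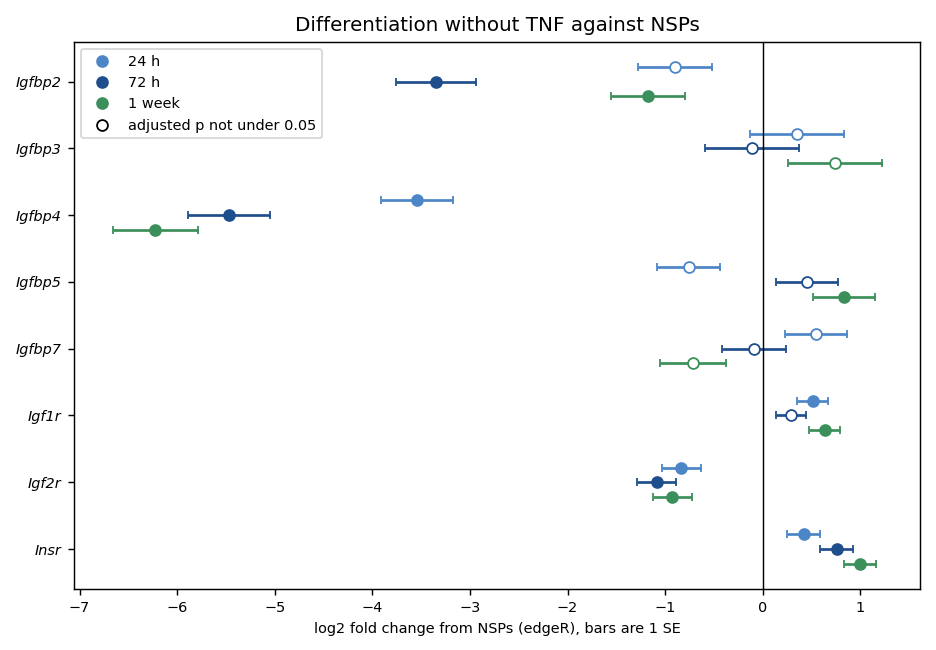
Log2 fold change from NSPs (horizontal axis) of the 8 tested genes at 24 h, 72 h and 1 week without TNF, with bars of 1 SE from edgeR. Filled points have an adjusted p under 0.05. *Igfbp4* reaches -6.22 at 1 week, *Igfbp2* is lowest at 72 h, and *Igf2r* lies left of 0 while *Insr* lies right of it.

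To compare genes with each other, CPM was divided by the length of the gene's merged exons in kb. Per kb, *Igfbp2* led in NSPs with 433 ± 18.2 (SD, n = 3), ahead of *Igfbp3* with 81.6 ± 38.6, *Igfbp4* with 31.2 ± 5.45 and *Igfbp5* with 16.9 ± 5.44. The receptors were of like level, at 9.32 ± 1.12 for *Igf2r*, 7.24 ± 0.67 for *Igf1r* and 6.38 ± 0.32 for *Insr*. *Igfbp7* (1.31 ± 0.20) and *Igfbp6* (0.24 ± 0.18) closed the order. No pair of neighbours overlapped in NSPs. At 72 h *Igfbp3* (75.5 ± 21.1 CPM per kb) was above *Igfbp2* (42.4 ± 10.4) with no overlap, and at 1 week *Igfbp2* (191 ± 36.0) and *Igfbp3* (136 ± 23.1) overlapped. *Insr* and *Igf1r* overlapped at 72 h and at 1 week, and at 24 h *Igf1r*, *Igfbp5* and *Insr* overlapped one another.

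The 6 binding proteins together summed to 564 ± 45.6 CPM per kb in NSPs. The sum was 351 ± 34.6 at 24 h, then 143 ± 29.0 at 72 h, and stood at 359 ± 46.6 after 1 week. *Igfbp2* made up 76.9% ± 2.97 of this sum in NSPs and 66.0% ± 1.64 at 24 h, but only 29.5% ± 1.38 at 72 h, before 53.0% ± 3.74 after 1 week. The share of *Igfbp3* was 14.2% ± 5.45 in NSPs and 52.3% ± 4.29 at 72 h, although its own level was not called different. *Igfbp5* held 3.06% ± 1.16 in NSPs and 16.8% ± 5.47 at 72 h, but 2.69% ± 0.23 at 72 h with TNF. *Igfbp4* went from 5.60% ± 1.36 to 0.12% ± 0.0021 at 1 week. These shares are a description and were not tested. The length used is that of all annotated exons, which can exceed that of the transcripts present.

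**Figure D3:**
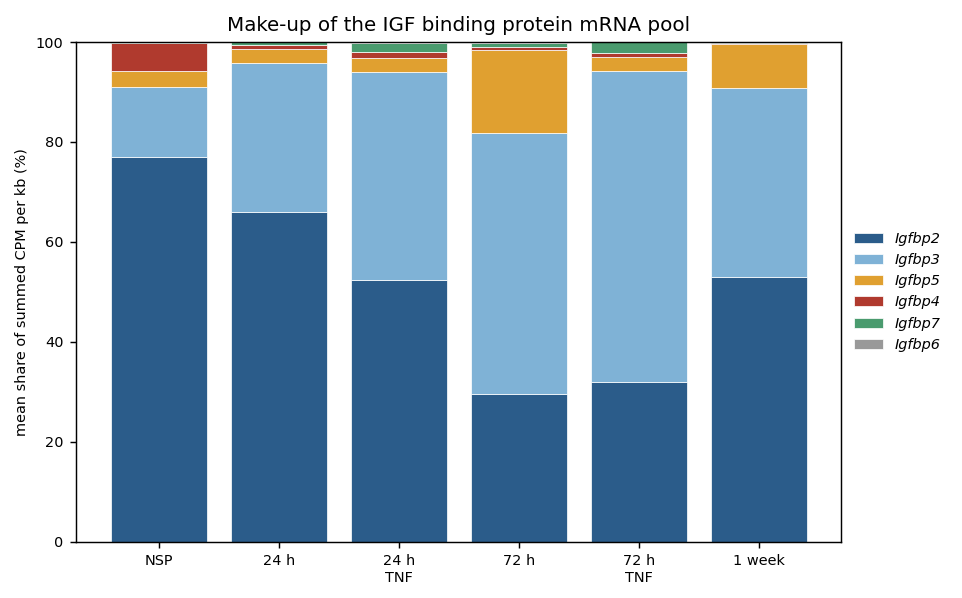
Mean share (vertical axis, percent) of each binding protein in the summed CPM per kb of the 6 binding protein genes, for the 6 conditions. *Igfbp2* takes 76.9% in NSPs and 29.5% at 72 h, and the share of *Igfbp5* is 16.8% at 72 h and 2.69% at 72 h with TNF.

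With TNF, *Igfbp7* was called higher at both times, and at 72 h *Igf1r* and *Igf2r* were called higher and *Igfbp5* lower. The *Igf2r* call held in only 4 of 6 fits without 1 library. No member's TNF effect was called different between the times. At 24 h, 1 of the 8 tested members was called higher and none lower, beside 3.5% of all tested genes called in either direction. At 72 h, 3 were called higher and 1 lower, beside 9.56% of all tested genes. The members' median log2 effect was 0.29 at 24 h and 0.69 at 72 h, against -0.01 at both times over all tested genes. The untreated 24 h and 72 h libraries in these comparisons also serve in the differentiation comparisons.

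*Igfbp7* stood at 4.66, 10.7 and 7.43 CPM at 24 h with TNF, against 2.12, 2.74 and 2.04 CPM without. At 72 h there were 4.001, 5.05 and 5.51 CPM with TNF and 1.44, 1.60 and 1.43 CPM without. Every TNF library lay above every untreated library of any time. The effect was 3.26-fold at 24 h (log2 fold change 1.70, SE 0.29, adjusted p = 0.00206 in edgeR) and 3.24-fold at 72 h (log2 fold change 1.70, SE 0.31, adjusted p = 0.00121 in edgeR). It was called in each of the 6 fits per time that left out 1 library. *Igfbp7* is strongly expressed by endothelial cells, whose 5 markers summed to 1.72 to 4.09 CPM at 24 h with TNF and 0.95 to 1.956 CPM without. At 72 h this sum was 2.06 to 3.44 CPM with TNF and 1.05 to 1.44 CPM without. Of these markers, *Cdh5* had no count with TNF or without at either time, and *Cldn5* averaged at most 0.03 CPM. The other 3 had higher means with TNF at both times without being called, *Flt1* with 1.24 against 0.594 CPM at 72 h and a log2 fold change of 2.00 at 24 h (SE 0.60, adjusted p = 0.0814 in edgeR), and *Pecam1* and *Tek* with at most 0.801 CPM in any of these conditions. Their part in the *Igfbp7* result was not tested.

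*Igfbp5* at 72 h had 18.1, 38.7 and 40.0 CPM with TNF and 179, 128 and 111 CPM without. The groups were far apart, and the TNF libraries were also below all NSPs. It was 4.31-fold lower with TNF (log2 fold change -2.11, SE 0.33, adjusted p = 0.00039 in edgeR), a call that held without any 1 library. Of the 8 astrocyte markers, 3 were also called lower with TNF at 72 h and none higher, beside 9.56% of all tested genes. Their part in the fall of *Igfbp5* was not tested. At 24 h there were 47.7, 28.1 and 26.7 CPM with TNF and 62.4, 47.4 and 71.0 CPM without. Replicate 1 with TNF overlapped the lowest untreated library, and the difference was not called (log2 fold change -0.81, SE 0.33, adjusted p = 0.238 in edgeR). It was not called in any of the 6 fits without 1 library (lowest adjusted p 0.124). With replicate 1 of both TNF conditions left out, an alternative added after the levels were seen, it was called (log2 fold change -1.14, SE 0.30, adjusted p = 0.0404). From 24 h to 72 h with TNF, *Igfbp5* was not called (log2 fold change -0.08, with a 95% interval of -0.73 to 0.56), and with both replicates 1 left out the value was 0.53 (SE 0.32, adjusted p = 0.29).

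*Igf1r* rose at 72 h to 305, 289 and 325 CPM with TNF from 184, 150 and 112 CPM without. The 3 TNF libraries were the highest of all 18 and close together. The effect was 2.06-fold (log2 fold change 1.04, SE 0.16, adjusted p = 0.000262 in edgeR), and it held without any 1 library. At 24 h the TNF libraries had 248, 228 and 222 CPM against 176, 151 and 193 CPM, without overlap but short of the threshold (log2 fold change 0.43, SE 0.16, adjusted p = 0.18 in edgeR).

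*Igf2r* had 109, 54.4 and 56.6 CPM at 72 h with TNF and 40.0, 43.9 and 38.5 CPM without. The groups did not overlap, but replicate 1 stood far above replicates 2 and 3. The effect was 1.80-fold (log2 fold change 0.85, SE 0.20, adjusted p = 0.0109 in edgeR). Without replicate 1 of 72 h with TNF it was 0.45 and not called (adjusted p = 0.0756), and it was not called either without replicate 3 of untreated 72 h (log2 fold change 0.80, adjusted p = 0.0562) or when only these groups were fitted (adjusted p = 0.0521). With replicate 1 of both TNF conditions left out it was 0.44 and called (SE 0.13, adjusted p = 0.0417). The antisense RNA *Airn* had 218, 89 and 89 counts in these TNF libraries, so replicate 1 was high for it too, and 50 to 59 counts without TNF (log2 fold change 1.15, SE 0.32, adjusted p = 0.0266 in edgeR). Its part in the *Igf2r* counts was not tested. At 24 h *Igf2r* was at 76.9, 61.7 and 61.4 CPM with TNF and 49.5, 51.3 and 44.8 CPM without, and this was not called (log2 fold change 0.46, SE 0.20, adjusted p = 0.302 in edgeR).

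For *Igfbp3* and *Igfbp2*, replicate 1 lay far from replicates 2 and 3 with TNF. *Igfbp3* had 132, 862 and 732 CPM at 24 h with TNF against 312 to 351 CPM without, and 179, 528 and 527 CPM at 72 h with TNF against 183 to 310 CPM without. Replicate 1 was thus below and replicates 2 and 3 were above all untreated libraries of their time. Over all replicates no effect was called (log2 fold change 0.82, SE 0.48, adjusted p = 0.507 at 24 h and 0.80, SE 0.48, adjusted p = 0.315 at 72 h in edgeR). Leaving out 1 library at a time gave no call at either time (lowest adjusted p 0.0751 at 24 h and 0.165 at 72 h). With replicate 1 of both TNF conditions left out, *Igfbp3* was called higher at 24 h (log2 fold change 1.29, adjusted p = 0.00776) and at 72 h (1.15, adjusted p = 0.00805). *Igfbp2* had 119, 541 and 547 CPM at 24 h with TNF and 68.6, 127 and 155 CPM at 72 h with TNF. It was not called at either time, nor in any fit without 1 library (lowest adjusted p 0.693 at 24 h and 0.226 at 72 h). With both replicates 1 left out it was called higher at 72 h (log2 fold change 0.84, adjusted p = 0.00493) and not at 24 h (0.34, adjusted p = 0.456). Replicate 1 was apart for other cell markers too. The smooth muscle actin *Acta2*, which carries most of the summed mural cell and fibroblast markers, was at 90.3, 527 and 493 CPM at 24 h with TNF and at 49.2, 186 and 202 CPM at 72 h with TNF. *Gfap* went the other way, with 1871, 463 and 596 CPM at 24 h and 1022, 217 and 229 CPM at 72 h. Their part in these results was not tested.

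The remaining members did not pass with TNF. *Igfbp4* was at 16.4, 7.68 and 8.73 CPM at 24 h with TNF and at 8.56, 1.97 and 2.38 CPM at 72 h with TNF, with replicate 1 the highest each time. *Insr* was at 150, 125 and 114 CPM at 24 h and at 231, 176 and 173 CPM at 72 h with TNF. At 72 h the 95% interval of its log2 effect was 0.06 to 0.71 and its adjusted p 0.159 in edgeR, and without replicate 1 of untreated 72 h it was called (log2 fold change 0.56, adjusted p = 0.0349).

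**Figure D4:**
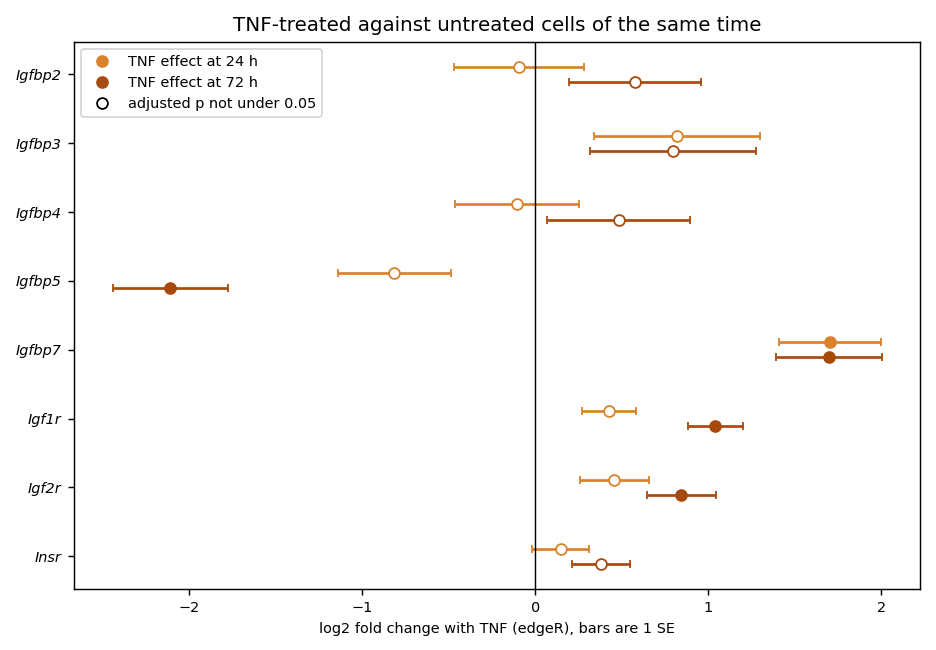
Log2 fold change with TNF (horizontal axis) against untreated cells of the same time for the 8 tested genes at 24 h and 72 h, with bars of 1 SE from edgeR. Filled points have an adjusted p under 0.05. *Igfbp7* lies at 1.70 at both times, and *Igfbp5* lies at -2.11 at 72 h.

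Whether the TNF effect itself differed between 24 h and 72 h was tested as an interaction. No member was called by edgeR or by DESeq2, beside 0.458% of all tested genes in edgeR, and 2 had an unadjusted p under 0.05 with either tool. These were *Igfbp5* (difference -1.29, SE 0.46, unadjusted p = 0.0113, adjusted p = 0.305 in edgeR) and *Igf1r* (0.62, SE 0.22, unadjusted p = 0.0124, adjusted p = 0.318 in edgeR). With replicate 1 of both TNF conditions left out, these differences were -0.69 and 0.66. A larger effect of TNF at 72 h than at 24 h is therefore not shown for either gene. For the other members it lay between -0.02 and 0.67. For *Igfbp7* the difference was -0.01 with a 95% interval of -1.21 to 1.19.

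Within TNF-treated cells, 3 of 8 members were called from 24 h to 72 h, beside 13.3% of all tested genes. *Insr* was higher (1.49-fold, log2 fold change 0.57, SE 0.17, adjusted p = 0.0283 in edgeR). *Igfbp2* was 3.44-fold lower (adjusted p = 0.00496) and *Igfbp4* 2.52-fold lower (log2 fold change -1.34, SE 0.38, adjusted p = 0.0257). *Igf1r* (0.40, adjusted p = 0.107), *Igfbp7* (-0.64, adjusted p = 0.138), *Igfbp3* (-0.48), *Igf2r* (0.14) and *Igfbp5* were not called. Fitting only these groups left none of the 3 called (adjusted p from 0.0698 to 0.193). With replicate 1 of both left out, all 3 were called (log2 fold changes 0.55, -1.94 and -1.91). The calls of *Insr* and *Igfbp4* were lost in 3 of 6 fits without 1 library each, and those of *Igfbp2* in none.

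Per kb, *Igf1r* and *Insr* differed in rank between 72 h with and without TNF. The mean ratio of *Igf1r* to *Insr* was 1.13 in NSPs and 1.21 at 24 h. It was 0.82 at 72 h and 0.88 at 1 week, so that *Insr* was the higher one, but 1.48 at 24 h with TNF and 1.31 at 72 h with TNF. The log2 ratio was below 0 in every untreated 72 h and 1 week library and above 0 in every NSP, untreated 24 h and TNF library. Which gene is the higher one depends on the exon lengths used. In CPM, *Igf1r* and *Insr* averaged 149 and 148 at untreated 72 h and 189 and 175 at 1 week. This ratio was not tested.

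The rest of the IGF pathway was read from 45 genes, of which 38 were tested. Of these, 21 were called at 24 h against NSPs (10 higher, 11 lower; background 52.7%), 28 at 72 h (12 higher, 16 lower; background 55.3%) and 24 at 1 week (11 higher, 13 lower; background 58.6%). Each share of the 38 lay above its background, by the most at 72 h, and this was not tested. With TNF, 4 were called at 24 h (3 higher, 1 lower), where 3.5% of all tested genes were, and 5 at 72 h (3 higher, 2 lower), where 9.56% were. Their median log2 effect was -0.08 and -0.04, against -0.01 at both times over all tested genes. The other steps gave 14 calls from 24 h to 72 h (background 24.8%), 5 from 72 h to 1 week (background 6.63%) and 9 from 24 h to 72 h with TNF (background 13.3%). Leaving out 1 library gave 18 to 22 calls at 24 h, 26 to 30 at 72 h and 23 to 26 at 1 week against NSPs. It gave 1 to 3 with TNF at 24 h and 3 to 7 with TNF at 72 h. For the other steps it gave 9 to 12 from 24 h to 72 h, 1 to 4 from 72 h to 1 week and 5 to 13 from 24 h to 72 h with TNF.

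Among the ligands, only *Igf1* was found in quantity. *Igf2*, *Ins1* and *Ins2* had at most 1 count in any library. *Igf1* had 0, 3 and 7 counts in the NSP replicates, or at most 0.398 CPM. It then had 4.31, 3.58 and 4.07 CPM at 24 h, 10.5, 9.63 and 11.5 CPM at 72 h, and 16.3, 20.9 and 10.6 CPM at 1 week. Each differentiated group was above NSPs, and the rise to 1 week was 79.7-fold in the edgeR fit (log2 fold change 6.32, SE 0.67, adjusted p = 2.08e-07 in edgeR). With TNF there were 1.64, 3.43 and 2.36 CPM at 24 h and 1.35, 8.82 and 8.32 CPM at 72 h, with replicate 1 lowest each time and every TNF library below the untreated libraries of its time, yet neither effect was called (adjusted p = 0.624 and 0.29 in edgeR).

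Of the other binding proteins, *Igfbp1* had at most 1 count in any library and *Igfals*, the acid-labile subunit that binds IGF complexes in blood, was called in no comparison. *Igfbpl1*, a relative of the binding proteins known from neural progenitors and developing axons, appeared late. It was at 0.91 to 1.45 CPM in NSPs and at 24 h, at 65.0, 101 and 87.0 CPM at 72 h, and at 65.1 to 72.7 CPM at 1 week. Cells treated with TNF had 9.86, 21.8 and 19.8 CPM at 72 h, which was 4.91-fold lower (log2 fold change -2.30, SE 0.38, adjusted p = 0.000581 in edgeR). At 24 h replicate 1 with TNF had 7.62 CPM while replicates 2 and 3 had 1.12 and 1.77 CPM, and no effect was called.

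The protease genes changed in both directions. *Pappa* encodes pappalysin, which cuts IGFBP4 and IGFBP5, and it had 2 counts in all NSP libraries together. At 24 h it had 7.56, 5.81 and 7.25 CPM, a ratio of 174 with a counting interval of 47.7 to 1443, and at 72 h and 1 week it lay between 4.46 and 7.04 CPM. TNF raised it to 8.82, 15.2 and 14.4 CPM at 24 h (1.87-fold, log2 fold change 0.90, SE 0.21, adjusted p = 0.0197 in edgeR) and to 23.5, 30.3 and 28.0 CPM at 72 h (4.59-fold, log2 fold change 2.20, SE 0.21, adjusted p = 2.78e-06 in edgeR). The groups did not overlap at either time, and the 24 h call was lost in 5 of 6 fits without 1 library. *Adam12*, a protease of IGFBP3 and IGFBP5, fell from a mean of 149 CPM in NSPs to 19.1 CPM at 24 h and 2.81 CPM at 72 h. *Htra1* fell from 46.7 CPM to 14.1 CPM at 72 h and stood at 34.2 CPM at 1 week. The last step was called (adjusted p = 0.0105 in edgeR), but not without replicate 1 of 1 week (adjusted p = 0.0526) or with the replicate block that leaves replicate 3 of 72 h unpaired (0.052). With TNF at 72 h *Htra1* was not called (log2 fold change -0.48), though it was without replicate 1 of 72 h with TNF (-1.19, adjusted p = 0.00115). *Stc1* and *Stc2*, the stanniocalcins that inhibit pappalysin, fell from means of 3.08 and 6.402 CPM in NSPs to 0.27 and 1.19 CPM at 1 week (adjusted p = 4.92e-05 and 1.31e-06 in edgeR).

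**Figure D5:**
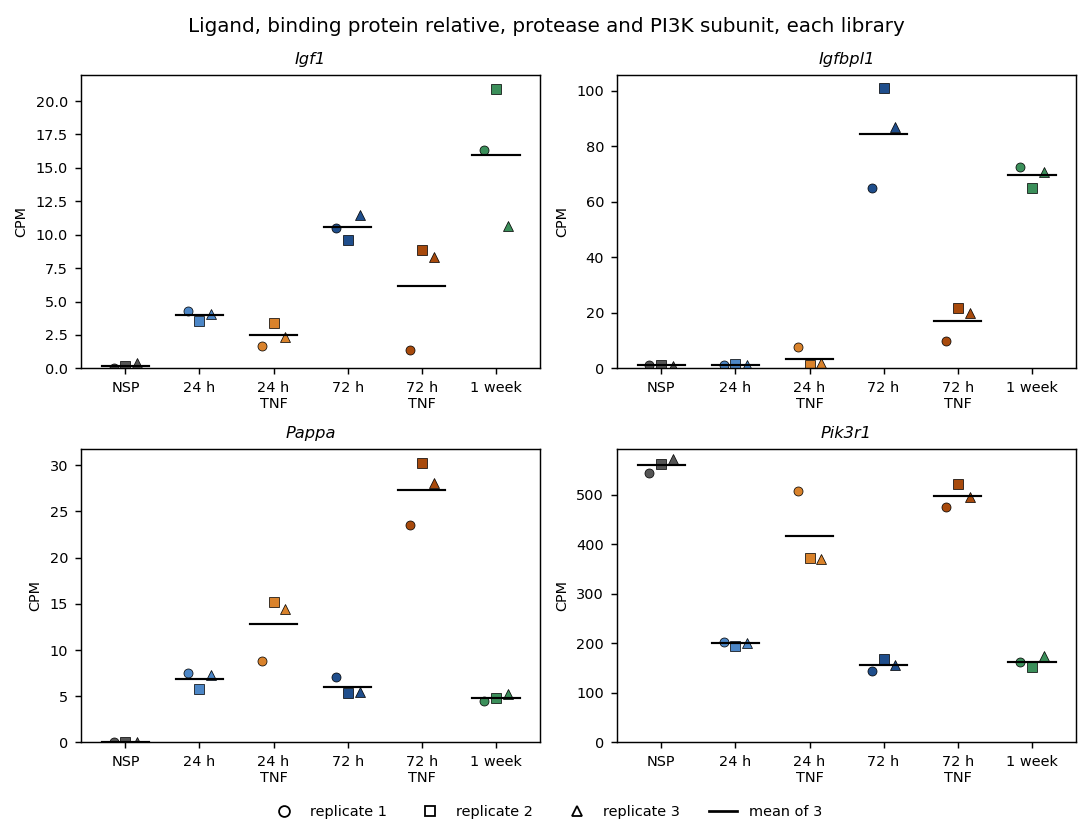
Level in CPM (vertical axes, from 0) of *Igf1*, *Igfbpl1*, *Pappa* and *Pik3r1* in every library, with the mean of 3 as a line. *Pappa* is highest at 72 h with TNF, from 23.5 to 30.3 CPM, and *Pik3r1* at 72 h with TNF, from 475 to 523 CPM, lies just under its NSP level of 544 to 572 CPM.

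Downstream of the receptors, *Pik3r1*, the main regulatory subunit of PI3K, fell with differentiation and was higher with TNF. It averaged 560 CPM in NSPs, 200 CPM at 24 h and 157 CPM at 72 h. With TNF the libraries had 508, 372 and 371 CPM at 24 h and 475, 523 and 497 CPM at 72 h, without overlap with untreated cells (log2 fold change 1.06, SE 0.12, adjusted p = 4.31e-05 and 1.67, SE 0.12, adjusted p = 1.41e-07 in edgeR). *Irs1*, an adaptor of both kinase receptors, was lower with TNF at 24 h (log2 fold change -0.68, SE 0.17, adjusted p = 0.0289 in edgeR), from 282, 275 and 342 CPM to 163, 178 and 219 CPM. *Eif4ebp1*, a translation repressor under mTORC1, was higher at 24 h (0.89, SE 0.24, adjusted p = 0.0482 in edgeR). At 72 h *Pik3r3* was lower with TNF (-1.05, SE 0.25, adjusted p = 0.0115 in edgeR), a call lost without replicate 3 of untreated 72 h (adjusted p = 0.0765) and when only these groups were fitted (adjusted p = 0.0521). The calls of *Irs1* and *Eif4ebp1* were lost in 5 and 6 of the 6 fits that each left out 1 library. *Igf2bp3*, an IGF2 mRNA-binding protein, was called at 24 h against NSPs (log2 fold change 0.73, SE 0.23, adjusted p = 0.0134 in edgeR) and not without replicate 2 of NSPs (adjusted p = 0.0683). At 72 h against NSPs it was not called (adjusted p = 0.0734), but was without replicate 1 of NSPs (adjusted p = 0.0259), with library totals (0.0431) and with the filter of 10 counts (0.0382). *Igf2bp2* was called in no comparison, and *Igf2bp1* had at most 18 counts in any library.

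As a description, the genes most like each member were found by Pearson's r of log2 CPM over the 18 libraries, among 10122 genes with a mean of at least 10 CPM. The points share libraries, conditions and depth. *Igfbp4* was most like *Specc1* (r = 0.99), *Prcp* (0.98) and *Tle4* (0.98). *Igfbp2* was most like *Timp4* (0.95), *Chn1* (0.93) and *Enc1* (0.93), and *Igfbp3* most like *Sptan1* (0.95), *Adrb1* (0.90) and *Akap12* (0.88). *Igfbp5* was nearest to *Tenm4* (0.91), *Nkain4* (0.90) and *Rgs3* (0.87). *Igfbp7* was nearest to *Mecom* (0.90), *Nfkbia* (0.90) and *Steap2* (0.90), of which *Nfkbia*, the NF-kB inhibitor that TNF induces, averaged 149 and 154 CPM in the 24 h and 72 h TNF libraries and at most 27.5 CPM in any untreated condition. *Igf1r* was most like *Syne1* (0.94), the unclassified transcript *A530064N14Rik* (0.93) and *Csnk1g1* (0.93), *Igf2r* most like *Ctc1* (0.91), *Trmt13* (0.89) and *Sept8* (0.88), and *Insr* most like *Ppip5k1* (0.96), the non-coding *Gm17203* (0.95) and *Ankrd13d* (0.94). Among the members themselves the strongest relation was negative, between *Igfbp5* and *Igfbp7* (r = -0.88), and the closest positive ones joined *Igf1r* with *Insr* (r = 0.73) and *Igfbp4* with *Igf2r* (r = 0.71).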

How the data were processed

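Stranded libraries of total RNA, made after ribosomal RNA depletion, were sequenced from 18 samples in 6 conditions. Per the labels and the paper's methods, reads were checked with FastQC, trimmed with Trim Galore, aligned with STAR, sorted with Samtools and counted with featureCounts, and the authors deposited raw counts per gene without normalization. The build named in the submitters' notes is mm10. Tool versions, annotation and the strand setting are not given in the sources used here.

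Of 54838 gene identifiers, 54809 were in GENCODE M21 (GRCm38, the assembly of mm10), the source of names, positions and exon lengths. The counts were fitted with edgeR 4.0.16 (limma 3.58.1, R 4.3.3): TMM factors, filterByExpr by condition, 1 quasi-likelihood fit with a mean per condition, and Benjamini-Hochberg adjustment over 20067 genes at 0.05. SE is the log2 fold change over the root of F. Log2 CPM for correlations used a prior count of 2, and DESeq2 1.42.0 was an alternative. Scripts were tested on simulated data. Tables and figures used Python 3.11.15, numpy 2.4.6, pandas 2.3.3, scipy 1.17.1 and matplotlib 3.10.9. No pair of replicates agreed within sampling noise (chi-square over degrees of freedom 4.08 to 62.7). Counting intervals cover 95% and counting error only, as PCR copies of a molecule were not told apart by identifiers.

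The rule for named genes took all 9 members, and a member not named in a comparison was not called in it. Of the other IGF pathway genes, those called with TNF or belonging to ligands, binding proteins, proteases with their inhibitors and IGF2 mRNA-binding proteins are named, except 1 gene that is not reported here. Members and lists were chosen with earlier results of these data known, and the promoter motifs with the members' values known. Alternatives were DESeq2, RLE factors, library totals only, 2 other filters on low counts (at least 10 counts in each library, or 5 in total), separate fits for each pair of groups, a block for the replicate number, calls only past 1 on the log2 fold scale, leaving out each library, and, added after the levels were seen, leaving out replicate 1 of both TNF conditions. The table names the column of 72 h replicate 3 with the number 4, and the block was also run with that library on its own. Same-numbered libraries deviated together from their condition means in 1 comparison, 72 h with TNF against 24 h with TNF (correlations from 0.255 to 0.291, each over 0.1), so the numbers were taken to pair the samples there only. Chromatin accessibility was not analysed here.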

Additional observations from a re-analysis of the deposited data

Results flagged for a closer look

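Among the members and the IGF pathway, 1 gene had a TNF effect that differed between the times by edgeR's test of the difference itself. *Igfbpl1* changed with TNF by 1.38 (log2, SE 0.53, not called) at 24 h and by -2.30 (SE 0.38) at 72 h, and the difference of -3.68 (SE 0.64, adjusted p = 0.0139 in edgeR) was called beside 0.458% of all tested genes. Without TNF the gene was at 1.28 to 1.45 CPM at 24 h and at 65.0 to 101 CPM at 72 h. With replicate 1 of both TNF conditions left out, the effects were 0.11 at 24 h and -2.02 at 72 h and the difference was -2.14 (adjusted p = 0.00403). The difference was not called with the replicate block when 72 h replicate 3 was unpaired (adjusted p = 0.0987), without any 1 of the untreated 24 h libraries (adjusted p from 0.0518 to 0.0579) or when only these groups were fitted (adjusted p = 0.0666). DESeq2 also called this difference for *Pappa* (1.29, adjusted p = 0.00658) and *Pik3r1* (0.61, adjusted p = 0.0414), which edgeR did not over all libraries (adjusted p = 0.0643 and 0.155) but did with both replicates 1 left out (adjusted p = 0.0458 and 0.017). Groups of 3 libraries are too small to be tested for outlying samples.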

How the results depend on the processing

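Over the 9 comparisons there were 26 calls of members, of which 12 held in every alternative and none changed direction. When calls also had to pass 1 on the log2 fold scale, 1 member was called at 24 h against NSPs and 2 at 1 week against NSPs. Fitting only the groups compared gave 2 members from 72 h to 1 week, with *Igfbp3* added, and 0 from 24 h to 72 h with TNF. Leaving out replicate 1 of both TNF conditions gave 3 members called with TNF at 24 h in place of 1, with *Igfbp3* and *Igfbp5* added. Leaving out single libraries gave 2 to 4 members called at 24 h against NSPs, 4 to 5 at 72 h and 4 to 7 at 1 week. It gave 2 to 3 from 24 h to 72 h, 1 in every fit from 72 h to 1 week and with TNF at 24 h, 3 to 5 with TNF at 72 h, and 2 to 3 from 24 h to 72 h with TNF. The fewest calls at 24 h came without replicate 3 of 24 h, when *Igf1r* and *Insr* were lost. The replicate block changed no call of a member from 24 h to 72 h with TNF, where the numbers pair the samples. Among the named pathway genes it lost *Stc1* there (adjusted p = 0.0571 in edgeR) and added *Stc2* (0.0425) and *Pik3r3* (0.0413). In the other comparisons it added 1 call of a member, *Igfbp2* at 24 h against NSPs (log2 fold change -0.91, adjusted p = 0.0392). With 72 h replicate 3 unpaired, *Igf2r* was lost at 72 h with TNF (adjusted p = 0.0707) and *Igf1r* was added at 72 h against NSPs (adjusted p = 0.0236). For the wider IGF pathway, calls ranged over all alternatives from 9 to 22 at 24 h, 14 to 30 at 72 h and 12 to 26 at 1 week against NSPs. They ranged from 1 to 5 with TNF at 24 h, 3 to 7 with TNF at 72 h, 5 to 16 from 24 h to 72 h, 1 to 5 from 72 h to 1 week, 4 to 14 from 24 h to 72 h with TNF, and 0 to 3 for the interaction. Library totals in place of TMM moved the median of all genes at 1 week against NSPs by 0.115 (log2), with no member's call changed. Where a call was lost or gained, the cause was not tested beyond the library or setting named. Depth limits *Igfbp6* (at most 9 counts), *Igfbp7* without TNF and *Igfbp4* at 1 week.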
